A study of Mus musculus with 12 samples.

Results

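Ligands of the tumor necrosis factor (TNF) superfamily were followed in natural killer (NK) cells of mice. NK cells are lymphocytes that kill target cells and release cytokines. The 10 genes Tnf, Lta, Ltb, Fasl, Tnfsf4, Tnfsf8, Tnfsf9, Tnfsf10, Tnfsf11 and Tnfsf14 were taken by symbol from a table of 55487 features. All 10 passed the filter on low values (log2 CPM above 0 in at least 4 samples), as did 12364 features in all. CPM is a gene's reads per 1000000 reads of the library.

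Most of these ligands are made as membrane proteins that assemble into trimers. Several of the ligands are also cut from the cell surface and act as soluble cytokines. Their receptors fall broadly into those with a death domain, which can start caspase-dependent cell death, and those that recruit TRAF adaptors and switch on NF-kappaB. In NK cells, TNF and lymphotoxins act on other cells as cytokines, Fas ligand and TRAIL are used to kill targets, and several other members are costimulatory signals exchanged with T cells and antigen-presenting cells.

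The mice were of the strain B6.129S4-Ifngtm3.1Lky/J with the genotype mut/mut, and so all 3 groups carried the Ifng allele whose reporter is YFP, a yellow fluorescent protein. All samples also share the label HD IL-15, where IL-15 is the cytokine that primed the cells. Group 1 was unstimulated, and the other 2 groups were the YFP- and YFP+ cells after 6 h with anti-NK1.1, an antibody against an activating receptor of NK cells. Each group had 4 samples, labelled f2, m2, m3 and m4. A shared label is not stated to mean a shared mouse, and no ages are given, so p-values measure the spread between these samples, which may be technical. YFP- and YFP+ cells had the same treatment and were set apart by the reporter. The labels give no time for the unstimulated samples. Against these, the antibody, time and selection by the reporter cannot be told apart.

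Library totals were 32.1 to 54.2 M reads, at which 3 reads correspond to 0.0553 to 0.0933 CPM. Ribosomal RNA-like features took 27.4 to 35.3% of unstimulated reads, 15.9 to 30.3% of YFP- reads and 13.7 to 29.8% of YFP+ reads. Of 9 NK cell markers, all were well detected, with a summed level of 10838 to 13207 CPM without stimulation, 16964 to 20521 CPM in YFP- samples and 26801 to 37654 CPM in YFP+ samples. Klrb1c, which encodes the NK1.1 antigen, had means of 307.7, 75.3 and 6.50 CPM in that order. The largest part of the sum was Gzmb, which encodes granzyme B, with means of 6165, 12849 and 24088 CPM. Of the 9 markers 2 rose (Gzmb and Nkg7) and 4 fell (Klrb1c, Ncr1, Eomes and Klrd1) in YFP+ over YFP- samples. Because these are bulk samples, fewer cells expressing a gene and less RNA per cell cannot be told apart.

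Both stimulated groups had higher levels of most ligand genes than the unstimulated samples. In YFP- over unstimulated samples 8 of the 10 rose and 0 fell, and the other 2, Fasl and Ltb, did not pass the test (limma, Benjamini-Hochberg adjusted p under 0.05 over all 12364 features). Of all features, 51.1% passed in this comparison, 30.2% higher and 20.9% lower. The median log2 difference was 4.21 over the 10 genes and 0.14 over all features. YFP+ over unstimulated samples gave 7 higher and 2 lower, against 60.8% of all features (27.5% higher and 33.3% lower), with a median of 3.91 against -0.03. The 2 comparisons share the unstimulated samples. Without ribosomal RNA-like features, YFP- over unstimulated samples gave 3072 features higher and 3444 lower, and 7 ligand genes higher and 0 lower.

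Between the stimulated groups the ligands divided. In YFP+ over YFP- samples 1 ligand gene rose (Tnf), 4 fell (Ltb, Tnfsf9, Tnfsf10 and Lta) and 5 did not pass the test. Of all features 21.8% passed, 3.28% higher and 18.5% lower, and the median log2 difference was -0.58 over the ligands and -0.19 over all features. The split over all features depended on scaling, with 405 higher and 2286 lower as deposited, 924 and 1847 with TMM scaling, 1078 and 1478 after quantile normalization, and 1505 and 1491 after each sample was centred on its median. Centring moved the differences between YFP+ and YFP- by 0.26 in log2. With it, 2 ligand genes rose (Tnf and Tnfsf11) and 3 fell (Ltb, Tnfsf9 and Tnfsf10). The calls of Tnf, Ltb, Tnfsf9 and Tnfsf10 held their direction and stayed past the threshold under each scaling tried. Without YFP+ m3, left out after the data were seen, 1 rose and 4 fell as well. The Tnf call was less firm under other settings. Without the label f2 or m4, 0 rose and 4 fell, and without m2 or with no filter on low values, 0 rose and 3 fell.

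**Figure D1:**
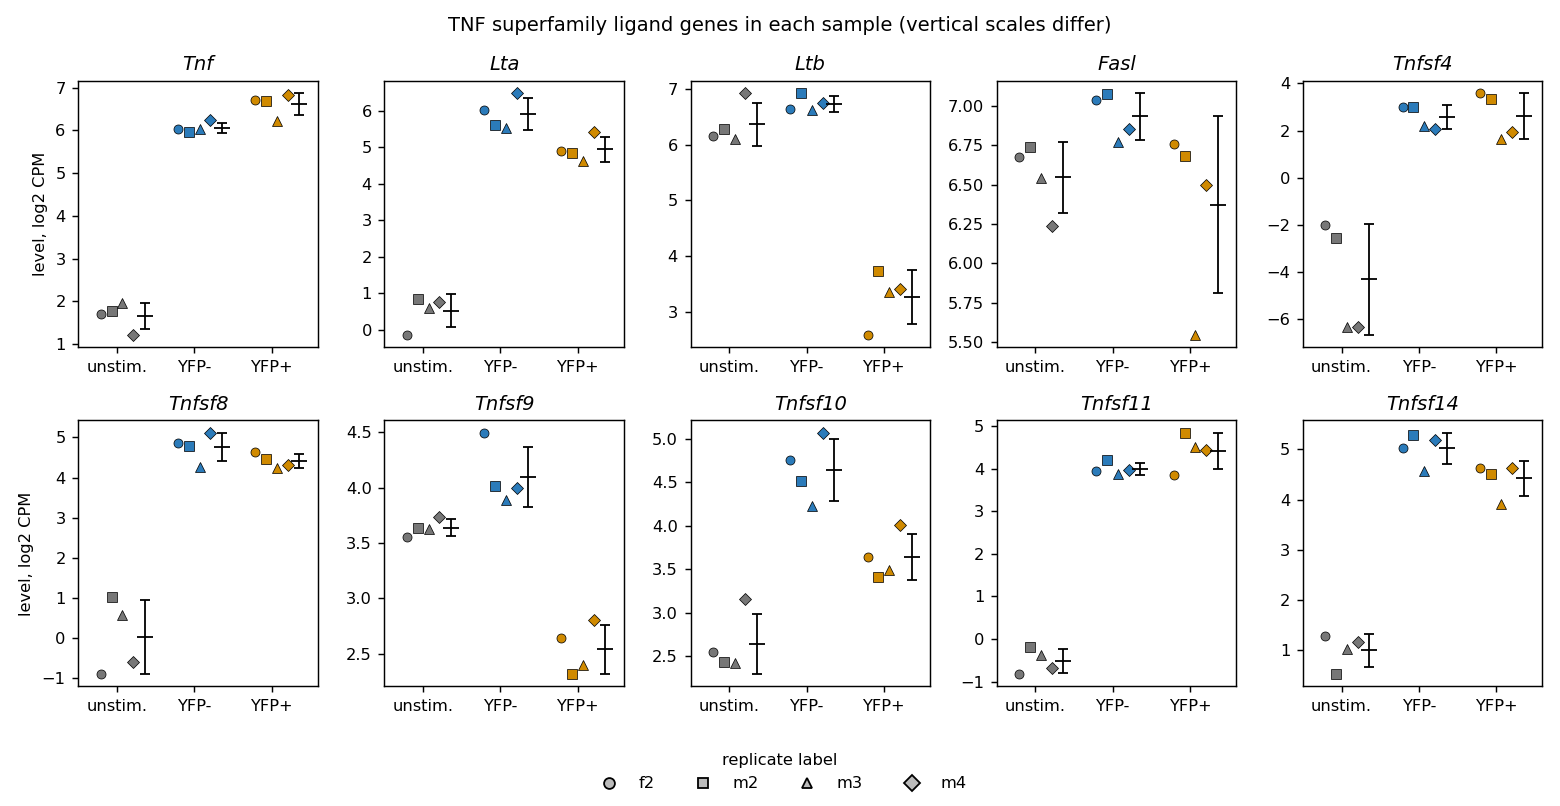
Level of each ligand gene in log2 CPM (vertical axis, different for each gene) in the unstimulated, YFP- and YFP+ samples; each symbol is 1 sample, shaped by its label, and the bar beside them is the mean with the SD of 4 samples. Tnf stands higher in both stimulated groups, Ltb is low in the 4 YFP+ samples, and Fasl keeps to levels that correspond to 46.8 to 135.0 CPM.

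**Figure D2:**
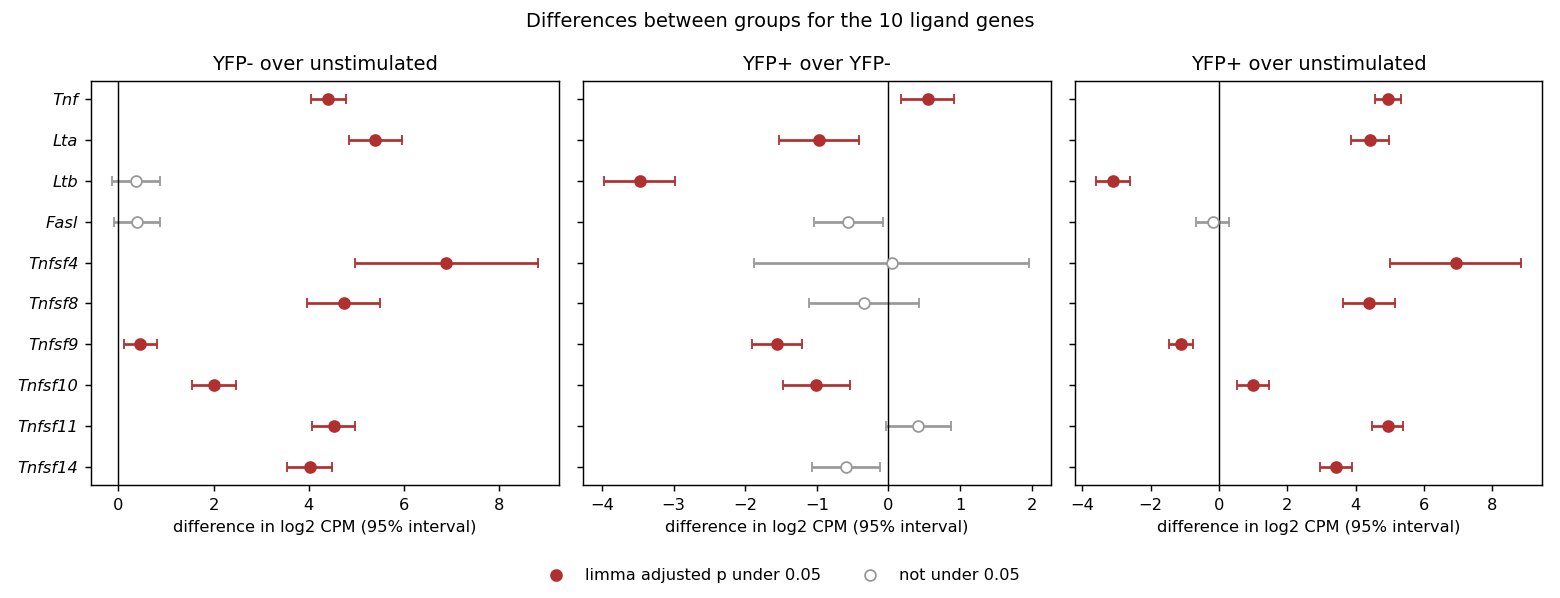
Difference in log2 CPM (horizontal axis) for each ligand gene in the 3 comparisons, with 95% intervals; filled red points have a limma adjusted p under 0.05. YFP- over unstimulated shows 8 filled points, all above 0, and YFP+ over YFP- shows 1 above 0 and 4 below.

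Tnf, Lta and Ltb lie side by side on chromosome 17 (GRCm38, GENCODE M21). Ltb (ENSMUSG00000024399) spans 35194439 to 35196320 on the plus strand, Tnf (ENSMUSG00000024401) 35199381 to 35202007 on the minus strand and Lta (ENSMUSG00000024402) 35203165 to 35205351 on the minus strand. The gaps are 3060 bases between Ltb and Tnf and 1157 bases between Tnf and Lta, and the 3 genes span 10913 bases. TNF and lymphotoxin alpha form secreted homotrimers that bind the same TNF receptors, and lymphotoxin beta anchors lymphotoxin alpha in the membrane as a heterotrimer that binds the lymphotoxin beta receptor. The upstream sequences are shown because these neighbours moved differently in the same cells. They come from RefSeq on GRCm38.p6, which had an entry for 8 of the 10 ligand genes, and capitals mark motif matches.
Tnf, chr17:35202008-35202257, minus strand: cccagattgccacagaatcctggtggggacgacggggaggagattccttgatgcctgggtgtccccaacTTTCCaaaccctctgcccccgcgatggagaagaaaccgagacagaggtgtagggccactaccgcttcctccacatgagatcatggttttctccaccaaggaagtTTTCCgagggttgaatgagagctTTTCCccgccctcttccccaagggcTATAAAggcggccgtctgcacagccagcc
Lta, chr17:35205352-35205601, minus strand: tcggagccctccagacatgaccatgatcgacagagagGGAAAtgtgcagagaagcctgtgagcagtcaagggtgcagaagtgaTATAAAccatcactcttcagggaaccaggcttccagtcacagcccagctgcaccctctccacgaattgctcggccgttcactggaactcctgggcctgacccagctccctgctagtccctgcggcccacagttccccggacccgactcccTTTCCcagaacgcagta
Ltb, chr17:35194257-35194438, plus strand: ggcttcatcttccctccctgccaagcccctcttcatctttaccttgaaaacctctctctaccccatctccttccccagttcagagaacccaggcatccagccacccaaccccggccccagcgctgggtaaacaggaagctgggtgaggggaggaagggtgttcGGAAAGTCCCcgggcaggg

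The Ltb window is 182 bases long because it stops at the GENCODE start, which lies upstream of the RefSeq start. Both strands were searched for the NF-kappaB consensus, the NFAT core GGAAA, which reads TTTCC on the other strand, and the AP-1 motif TGANTCA, and the given strand for the TATA box TATAAA. Tnf had 3 matches to GGAAA, at -181, -77 and -54 from the RefSeq start, and a TATAAA at -29. Lta had 2 matches to GGAAA, at -213 and -17, and a TATAAA at -167. Ltb had 1 match to the NF-kappaB consensus, which starts at -87 and overlaps its 1 match to GGAAA. In windows of 250 bases over 32851 promoters, 55.6% held GGAAA, 7.25% the NF-kappaB consensus, 6.75% TGANTCA and 7.59% TATAAA, so that GGAAA is common.

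The 3' ends of the 3 messages also differ in AU-rich elements, the ATTTA repeats known to shorten the life of cytokine mRNAs. The 3' UTR of Tnf has 764 bases with 8 ATTTA and 5 TTATTTATT, that of Lta has 572 bases with 3 and 1, and that of Ltb has 156 bases with 0 of either. Among the other ligands Tnfsf8 has 10 ATTTA, Tnfsf10 has 8, Tnfsf11 has 6, and Fasl, Tnfsf4, Tnfsf9 and Tnfsf14 have 1 or 2. Each of these has 0 TTATTTATT. Of 10097 tested genes with a 3' UTR, 805 (7.97%) held at least 1 TTATTTATT, and the median gene had 1 ATTTA. A link between these counts and the differences between groups was not tested. The densest 30 bases of Tnf, bases 437 to 466 after the stop codon, hold 5 ATTTA, with the repeats in capitals.
Tnf AU-rich element: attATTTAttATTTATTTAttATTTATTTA

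Tnf had 3.23, 3.39, 3.87 and 2.31 CPM in the unstimulated samples f2, m2, m3 and m4. It had 65.4, 61.9, 65.7 and 75.1 CPM in YFP- samples and 104.0, 102.9, 75.0 and 112.9 CPM in YFP+ samples, in the same order. All stimulated samples were far above all unstimulated ones, and the YFP+ and YFP- ranges met only through YFP+ m3, which lay just below YFP- m4. The log2 difference was 4.40 (SE 0.17, limma adjusted p = 1.1e-09) for YFP- over unstimulated and 4.95 (SE 0.17, limma adjusted p = 2.7e-10) for YFP+ over unstimulated. For YFP+ over YFP- it was 0.55 (SE 0.17, limma adjusted p = 0.037), higher in 4 of 4 labels. This last call was lost without the label f2 (limma adjusted p = 0.144), m2 (0.194) or m4 (0.067), and held without m3 (0.021). It had a limma adjusted p of 0.165 with no filter on low values, and 0.011 at a difference of 0.67 without the YFP+ library m3 alone.

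Lta rose from 0.892, 1.79, 1.51 and 1.66 CPM in unstimulated samples to 64.6, 48.8, 46.1 and 89.4 CPM in YFP- samples. YFP+ samples had 29.6, 28.7, 24.6 and 42.5 CPM, between the other groups, and the 3 ranges did not overlap. The log2 difference was 5.40 (SE 0.26, limma adjusted p = 7.9e-09) for YFP- over unstimulated, and -0.97 (SE 0.26, limma adjusted p = 0.017) for YFP+ over YFP-. YFP+ over unstimulated was 4.43 (limma adjusted p = 1.4e-08). The YFP+ over YFP- difference of Lta had a limma adjusted p of 0.056 without the samples labelled m2, 0.062 after centring and 0.131 with no filter. The miRNA gene Mir6974 lies within Lta and had at most 1 read.

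Ltb had 71.7, 78.2, 68.6 and 121.9 CPM in unstimulated samples and 99.8, 122.2, 99.4 and 107.6 CPM in YFP- samples, and these ranges overlapped. YFP+ samples had 5.97, 13.2, 10.2 and 10.5 CPM, all far below both other groups. The log2 difference of YFP+ over YFP- was -3.47 (SE 0.23, limma adjusted p = 1.0e-06) and that of YFP+ over unstimulated was -3.10 (SE 0.23, limma adjusted p = 9.6e-08). YFP- over unstimulated was 0.37 (95% interval -0.13 to 0.87, limma adjusted p = 0.20). Under the alternatives tried, the YFP+ over YFP- difference of Ltb stayed between -3.56 and -3.21. The miRNA gene Mir6973a lies within Ltb and had at most 6 reads.

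The balance of the 3 genes within a sample does not depend on how libraries are scaled to each other. The log2 ratio of Tnf to Ltb reads was -4.71 ± 0.69 (SD, n = 4) without stimulation, -0.68 ± 0.21 in YFP- samples and 3.34 ± 0.57 in YFP+ samples. That of Lta to Ltb was -5.86 ± 0.45, -0.83 ± 0.48 and 1.67 ± 0.57. Both ratios passed from below to above 0 between YFP- and YFP+ in 4 of 4 labels. The ratio of Tnf to Lta was 1.15 ± 0.59, 0.16 ± 0.34 and 1.67 ± 0.20, lowest in the YFP- samples. These ratios were proposed with the differences known and carry no test.

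**Figure D3:**
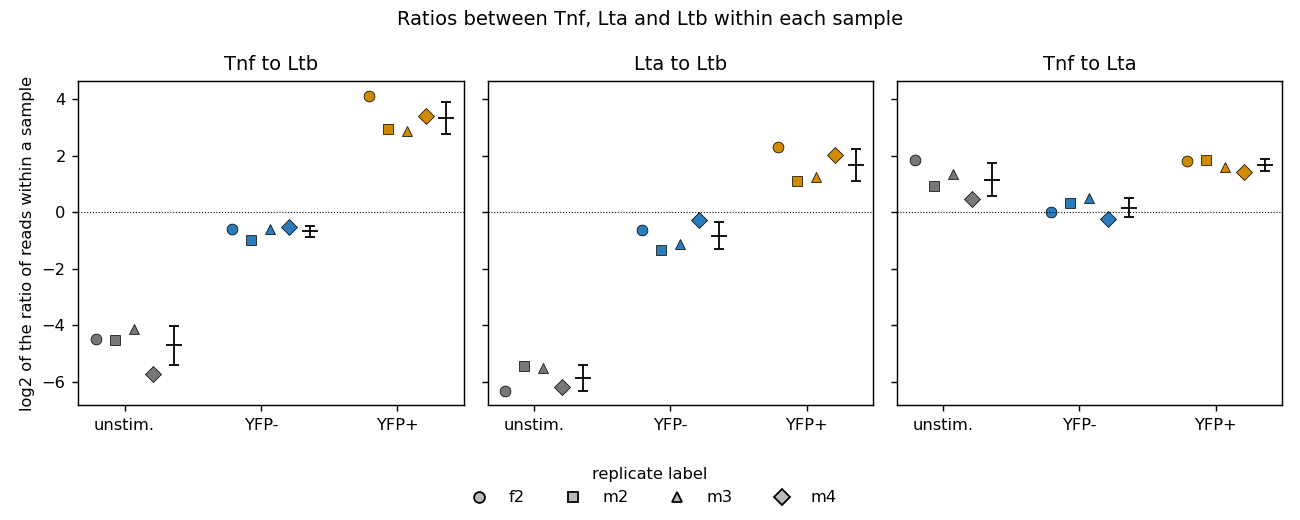
Log2 ratio of reads of 2 genes within each sample (vertical axis) for Tnf to Ltb, Lta to Ltb and Tnf to Lta in the 3 groups; symbols are samples by label, bars are the mean with the SD of 4 samples, and the dotted line marks equal reads. The Tnf to Ltb ratio runs from a mean of -4.71 through -0.68 to 3.34.

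Genes around the locus did not share the rise of Tnf and Lta over unstimulated samples. Within 100 kb the annotation has 15 other protein-coding genes, of which 11 passed the filter. Of these, 0 passed the test as higher in any of the 3 comparisons, and the largest difference above 0 was 0.24, for Csnk2b in YFP- over unstimulated. In YFP- over unstimulated samples 3 fell, with log2 differences of -1.36 for Lst1, -0.82 for Nfkbil1 and -0.60 for Bag6. In YFP+ over YFP- samples 4 fell, with -1.19 for Lst1, -1.04 for Nfkbil1, -0.73 for Gpank1 and -0.64 for H2-D1, a class I histocompatibility gene. YFP+ over unstimulated samples gave 7 lower. The shares of all features that passed as lower in these 3 comparisons were 20.9%, 18.5% and 33.3%. Those that passed as higher were 30.2%, 3.28% and 27.5% in the same order. With 3.28% in YFP+ over YFP-, few rises would be found there among any 11 genes. In YFP+ over YFP- on the deposited scale the 11 genes ranged from -1.20 to -0.01, and Ltb, at -3.47, lay below all of them.

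**Figure D4:**
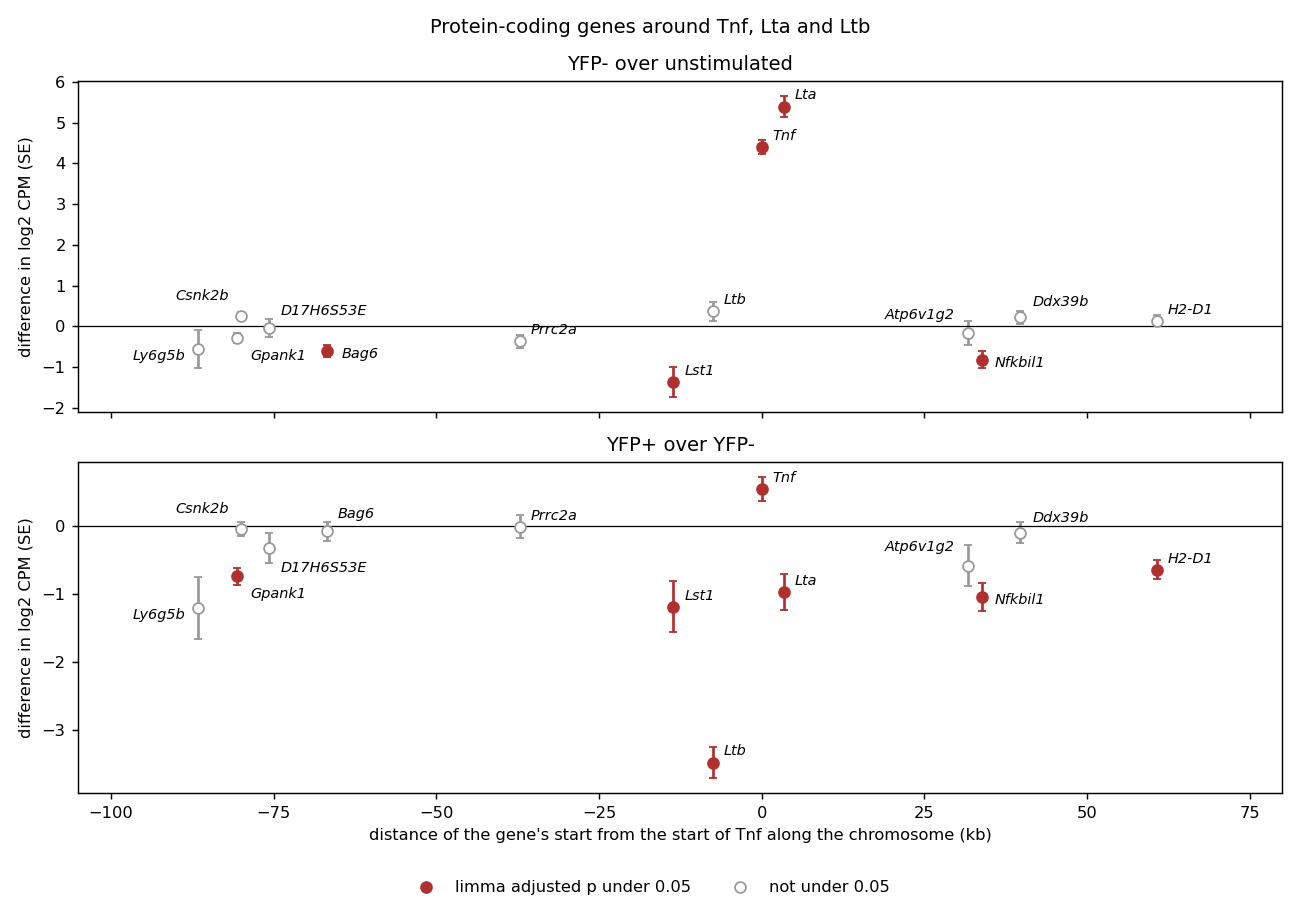
Difference in log2 CPM with its SE (vertical axis) for protein-coding genes around Tnf, by the distance of each gene's start from that of Tnf in kb, for YFP- over unstimulated (top) and YFP+ over YFP- (bottom); filled red points have a limma adjusted p under 0.05. Tnf and Lta stand out above 0 in the top panel, and Ltb is the lowest point of the bottom panel, at -3.47.

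The 2 ligands best known for killing, Fasl and Tnfsf10, were both highest in YFP- samples. Only Tnfsf10 passed the test on the deposited scale. Fasl (ENSMUSG00000000817; chromosome 1, 161780689 to 161788495, minus strand) encodes Fas ligand, which NK cells store with their cytotoxic granules. It had 102.0, 106.7, 93.1 and 75.3 CPM without stimulation, 131.0, 135.0, 108.9 and 115.4 in YFP- samples and 108.3, 102.6, 46.8 and 90.3 in YFP+ samples. YFP- samples were the highest, and YFP+ and unstimulated samples overlapped. On the deposited scale no comparison passed the test, with differences of 0.39 (limma adjusted p = 0.17) for YFP- over unstimulated, -0.56 (limma adjusted p = 0.094) for YFP+ over YFP- and -0.18 (limma adjusted p = 0.52) for YFP+ over unstimulated. The lowest sample, YFP+ m3, also had the largest share of ribosomal RNA-like reads in its group, 29.8%. Once ribosomal RNA-like features were removed before scaling, YFP+ over YFP- was -0.57 and passed (limma adjusted p = 0.029), as it did after quantile normalization (-0.47, limma adjusted p = 0.046). Without the 1 library YFP+ m3, left out after the data were seen, YFP+ over YFP- was -0.29 (limma adjusted p = 0.18) and YFP- over unstimulated passed at 0.39 (limma adjusted p = 0.022).

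Tnfsf10 (ENSMUSG00000039304; chromosome 3, 27317028 to 27342427, plus strand) encodes TRAIL, which kills through death receptors. It had 5.85, 5.37, 5.35 and 8.88 CPM in unstimulated samples, 27.0, 22.9, 18.8 and 33.6 in YFP- samples and 12.4, 10.6, 11.2 and 16.1 in YFP+ samples. The 3 groups did not overlap, and YFP+ lay in the middle. It rose by 2.01 (SE 0.22, limma adjusted p = 7.2e-06) in YFP- over unstimulated and fell by 1.01 (SE 0.22, limma adjusted p = 0.0048) in YFP+ over YFP-. Its YFP+ samples stayed above unstimulated ones (95% interval 0.53 to 1.47 in log2, limma adjusted p = 0.0012).

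Of the costimulatory ligands, Tnfsf4, Tnfsf8 and Tnfsf14 rose in both stimulated groups. In YFP+ over unstimulated samples their log2 differences were 6.93, 4.39 and 3.42, with limma adjusted p of 1.5e-05, 2.0e-07 and 2.8e-08. Tnfsf4 (ENSMUSG00000026700; chromosome 1, 161395409 to 161418410, plus strand) encodes OX40 ligand. It had 9, 6, 0 and 0 reads in the unstimulated samples f2, m2, m3 and m4. YFP- samples had 8.01, 8.05, 4.52 and 4.16 CPM and YFP+ samples 11.9, 9.96, 3.09 and 3.76 CPM. In each group f2 and m2 were above m3 and m4, and the stimulated groups overlapped. The deposited scale gave 6.88 (SE 0.89, limma adjusted p = 3.3e-05) for YFP- over unstimulated, and log2(CPM + 1) gave 2.67, because the size depends on how values near 0 are treated. YFP+ over YFP- was 0.05 (95% interval -1.87 to 1.97), too wide to show the direction.

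Tnfsf8 (ENSMUSG00000028362; chromosome 4, 63831308 to 63861347, minus strand) encodes CD30 ligand. It had 0.525, 2.03, 1.48 and 0.647 CPM without stimulation, 29.3, 27.6, 19.1 and 34.6 in YFP- samples and 24.9, 22.1, 19.0 and 20.0 in YFP+ samples. The stimulated groups overlapped and stood above all unstimulated samples. It rose by 4.73 (SE 0.35, limma adjusted p = 3.3e-07) in YFP- over unstimulated, and YFP+ over YFP- was -0.34 (SE 0.35, limma adjusted p = 0.53).

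Tnfsf14 (ENSMUSG00000005824; chromosome 17, 57189492 to 57194177, minus strand) encodes LIGHT, which binds the herpesvirus entry mediator and the lymphotoxin beta receptor. It had 2.41, 1.42, 2.03 and 2.22 CPM in unstimulated samples, 32.5, 39.0, 23.8 and 36.6 in YFP- samples and 24.8, 22.9, 15.1 and 24.6 in YFP+ samples. It rose by 4.02 (SE 0.22, limma adjusted p = 2.5e-08) in YFP- over unstimulated. YFP+ over YFP- was -0.60 (SE 0.22, limma adjusted p = 0.069), lower in 4 of 4 labels with ranges that overlapped. Without ribosomal RNA-like features this difference passed, at -0.61 (limma adjusted p = 0.037), as it did with voom weights (limma adjusted p = 0.040).

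Tnfsf9 (ENSMUSG00000035678; chromosome 17, 57105325 to 57107757, plus strand) encodes the ligand of the costimulatory receptor Tnfrsf9 and followed another course. It had 11.7, 12.4, 12.3 and 13.3 CPM without stimulation, 22.6, 16.1, 14.8 and 15.9 in YFP- samples and 6.21, 4.96, 5.25 and 6.97 in YFP+ samples. The 3 groups did not overlap, and YFP+ was the lowest. It fell by 1.56 (SE 0.16, limma adjusted p = 3.2e-05) in YFP+ over YFP- and also fell in YFP+ over unstimulated (95% interval -1.45 to -0.75, limma adjusted p = 4.8e-05). The rise of 0.46 (SE 0.16, limma adjusted p = 0.029) in YFP- over unstimulated was lost without the samples labelled f2 (limma adjusted p = 0.18), m2 (0.080) or m4 (0.053), and after centring (0.12). The lincRNA gene Gm11110 overlaps Tnfsf9 on the other strand, and whether counting used strand is not given in the sources used here. Gm11110 had 27.9 to 41.3 CPM in unstimulated samples, 6.55 to 9.24 in YFP- samples and 2.27 to 3.48 in YFP+ samples, so that reads of the 2 genes cannot be told apart with certainty.

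Tnfsf11 (ENSMUSG00000022015; chromosome 14, 78277445 to 78308043, minus strand) encodes RANKL, the cytokine that drives the formation of osteoclasts. It had 0.551, 0.868, 0.753 and 0.617 CPM without stimulation, 15.4, 18.5, 14.8 and 15.7 in YFP- samples and 14.5, 28.9, 23.0 and 21.6 in YFP+ samples. All stimulated samples were above all unstimulated ones, and YFP+ overlapped YFP- through f2. It rose by 4.52 (SE 0.21, limma adjusted p = 7.2e-09) in YFP- over unstimulated and by 4.93 (SE 0.21, limma adjusted p = 1.3e-09) in YFP+ over unstimulated. YFP+ over YFP- was 0.41 (95% interval -0.04 to 0.87, limma adjusted p = 0.18). It passed after quantile normalization (0.64, limma adjusted p = 0.033) and after centring (0.68, limma adjusted p = 0.026).

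To compare levels between genes, CPM were divided by the length of the merged exons in kb. The summed level of the 10 ligands was 120.4 ± 11.5 CPM per kb (SD, n = 4) without stimulation, 273.9 ± 25.8 in YFP- samples and 172.5 ± 31.3 in YFP+ samples. In unstimulated samples Ltb (46.0% ± 8.9 of the sum) and Fasl (40.9% ± 8.2) made up most of it, with overlapping ranges, and Tnfsf9 came next at 8.05% ± 0.50. In YFP- samples Ltb (25.9% ± 2.6), Fasl (23.2% ± 2.2), Lta (16.3% ± 4.0) and Tnf (15.0% ± 1.5) led, and each overlapped its neighbour in the order of levels. In YFP+ samples Tnf led with 35.0% ± 1.4, followed by Fasl with 25.5% ± 4.9 and Lta with 13.2% ± 2.3, while Ltb held 3.94% ± 1.41. The Tnf and Fasl levels overlapped in YFP+ samples, as did those of Fasl and Lta, but their shares did not. The shares were 33.5 to 36.4% for Tnf, 19.2 to 30.3% for Fasl and 11.1 to 16.0% for Lta. Tnfsf14 came next at 6.82% ± 0.34 and Tnfsf11 at 5.91% ± 2.06.

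**Figure D5:**
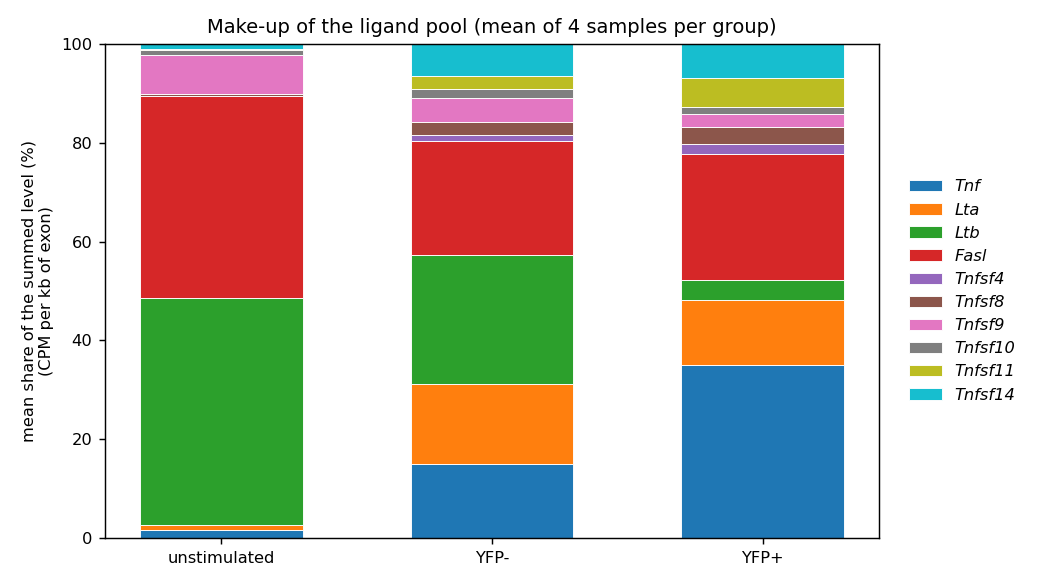
Share of the summed level of the 10 ligand genes (vertical axis, percent of CPM per kb of exon) held by each gene, as the mean of 4 samples in the unstimulated, YFP- and YFP+ groups. Ltb and Fasl fill most of the unstimulated bar, and Tnf, with 35.0%, is the largest part of the YFP+ bar.

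Over the 12 samples, as a description that mainly reflects the 3 groups, log2 CPM of Tnf had a Pearson r of 0.99 with Tnfsf11, 0.97 with Tnfsf8 and 0.95 with Lta. Ltb had an r of 0.92 with Tnfsf9 and -0.50 with Tnf. Among 8154 candidate genes, Tnf was most alike to Pno1, Znhit6, Ndufaf4, Chac1 and Chchd4 (r of 0.995 for each), and Lta to Zeb2, Utf1, Cd82, Lilr4b and Kdm6b (0.989 to 0.984). Ltb was most alike to Klf10, Klk8, Egr3, Ms4a4c and H2-Q4 (0.982 to 0.971).

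Receptors for these ligands, of which 11 of 13 passed the filter, also differed between stimulated and unstimulated samples. In YFP- over unstimulated samples 5 rose: Tnfrsf4, the receptor of OX40 ligand, by 5.47, Fas by 3.70, Tnfrsf9 by 1.80, Tnfrsf10b, a TRAIL receptor, by 1.28 and Ltbr by 1.21 in log2. Tnfrsf14, the herpesvirus entry mediator, fell by 1.16, and the median over the list was 0.57. Of all features 30.2% rose and 20.9% fell, with a median of 0.14. In YFP+ over YFP- samples Tnfrsf4 rose by 1.80 (15.4 to 53.2 CPM), while Fas fell by 1.86 (20.5 to 5.89 CPM) and the decoy receptor Tnfrsf23 fell by 2.16 (1.55 to 0.325 CPM). The other 8 did not pass, and the median was -0.38. Of all features 3.28% rose and 18.5% fell, with a median of -0.19. In YFP+ over unstimulated samples 5 rose and 3 fell, against 27.5% and 33.3% of all features. Tnfrsf9 had the highest CPM on this list, with means of 907.7, 2934 and 2512 CPM.

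All 22 adaptors and feedback genes of TNF receptor signalling passed the filter. In YFP- over unstimulated samples 12 rose and 2 fell, with a median of 0.52, against 30.2% and 20.9% of all features and a median of 0.14. The largest rises were those of Relb (2.92), Nfkbia (2.79), Nfkb2 (2.78), Traf5 (1.82) and Tnfaip3 (1.54). Nfkbia and Tnfaip3 are negative regulators of NF-kappaB, and Relb and Nfkb2 are subunits of its non-canonical form. In YFP+ over YFP- samples 0 rose, 10 fell and 12 did not pass, with a median of -0.55. Of all features 3.28% rose and 18.5% fell in this comparison, with a median of -0.19, so that few rises would be found in any list of this size. After quantile normalization 5 fell, after centring 6, and 0 rose in either. The largest differences were those of Birc3 (-1.69, limma adjusted p = 2.0e-04), Tradd (-0.95), Relb (-0.92), Rnf31 (-0.87) and Nfkbia (-0.85). Birc3 is a ubiquitin ligase of the receptor complex and Tradd its death domain adaptor. YFP+ over unstimulated samples gave 8 higher and 7 lower, against 27.5% and 33.3% of all features.

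Genes for shedding and cleavage of the ligands had 6 of 7 past the filter. Adam17, the protease that releases soluble TNF, did not pass the test in any comparison (18.4, 21.5 and 15.8 CPM in unstimulated, YFP- and YFP+ samples). Rhbdf2, which brings this protease to the surface, rose by 1.21 in YFP- over unstimulated and by 0.57 (limma adjusted p = 0.014) in YFP+ over YFP-. Adam10, a related protease that cuts Fas ligand, rose by 0.46 (limma adjusted p = 0.016) in YFP+ over YFP-, and Frmd8, a partner of the Rhbdf proteins, fell by 1.72 (limma adjusted p = 0.014). Sppl2a, an intramembrane protease, rose by 1.05 in YFP- over unstimulated. The medians were 0.48 in YFP- over unstimulated and -0.49 in YFP+ over YFP-, against 0.14 and -0.19 over all features.

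Of 8 other ligands of the superfamily, Cd70 and Tnfsf12 passed the filter. Cd70, the ligand of CD27, had means of 0.080, 10.6 and 18.7 CPM in unstimulated, YFP- and YFP+ samples. It rose by 6.96 (SE 0.29, limma adjusted p = 2.1e-09) in YFP- over unstimulated, and YFP+ over YFP- was 0.83 (limma adjusted p = 0.055), which passed after centring, quantile normalization and TMM scaling. Tnfsf12, which encodes TWEAK, had 3.29, 2.68 and 0.950 CPM and fell by 1.56 (SE 0.28, limma adjusted p = 0.0015) in YFP+ over YFP-. Cd40lg had 0 reads in every sample.

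Markers of other cell types were examined because T cells, B cells and myeloid cells also make several of these ligands. The 7 T cell markers summed to 52.8 to 112.5 CPM in unstimulated samples, 68.1 to 93.9 in YFP- samples and 63.8 to 96.0 in YFP+ samples. Within them Trac rose (means of 7.43, 34.3 and 48.4 CPM). Cd3g (47.9, 32.5 and 20.6 CPM) and Cd3d (17.8, 15.7 and 10.4 CPM) fell in YFP+ over unstimulated samples, with log2 differences of -1.22 (limma adjusted p = 0.0059) and -0.77 (limma adjusted p = 0.012). Cd3e had at most 1.49 CPM and Cd4 at most 0.184 CPM in any sample. The 5 B cell markers summed to 1.78 to 4.19, 0.922 to 2.86 and 0.470 to 1.37 CPM, and the 8 myeloid markers to 88.8 to 106.6, 61.3 to 92.0 and 34.4 to 45.9 CPM, lowest in YFP+ samples, where Cd68 and Itgax fell against YFP-. S100a9 had 0 reads in every sample, and the 8 markers of other innate lymphoid cells summed to at most 1.95 CPM. Most of the myeloid sum came from Cd68 and Itgax. Cd68 had means of 55.3, 34.6 and 17.8 CPM in unstimulated, YFP- and YFP+ samples, and Itgax at least 19.7 CPM in every sample. Cd14 had at most 1.92, Lyz2 0.803, Csf1r 0.316, S100a8 0.079 and Adgre1 0.031 CPM in any sample. The myeloid sum was lower in the YFP+ samples, as were Ltb, Tnfsf9, Tnfsf10 and Lta against YFP-. Its highest range was that of the unstimulated samples. There Lta and Tnfsf10 had their lowest means, 1.46 and 6.36 CPM, and Ltb and Tnfsf9 had means of 85.1 and 12.5 CPM, between the other groups. Lyz2 had 0 reads in the YFP- samples. A part of myeloid cells in these differences was not tested.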

How the data were processed

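RNA of 12 samples was sequenced after cDNA synthesis with a SMARTer kit from 10 ng of total RNA, per the labels' protocols. STAR 2.7.9a, featureCounts 2.0.3 of Subread, bcl2fastq and the build GRCm38 are named in the submitters' processing notes. Values deposited by the authors are moderated log2 CPM in 1 table, per the file headers. After 287 repeated lines of 55774 were dropped, whole reads were recovered for 100% of values (within 0.05 of a whole read), which gave the library totals, CPM and reads printed here. There were 0 per-sample columns without a sample.

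The log2 values were fitted with limma 3.58.1 in R 4.3.3, with 12 samples and 3 group coefficients and an intensity trend. Differences are in log2, with Benjamini-Hochberg adjustment over all 12364 features tested. The procedure was tested on simulated data. In YFP+ over YFP- it called 63 of 67 changes of 1 in log2 but only 6 of 67 changes of 0.5, with 8 false calls over 12085 genes. The simulation changed few genes, only in YFP+ samples, and gave every gene the same relative spread, whereas 21.8% of features passed here. Its rates need not hold for these data. A difference near 0.5 that did not pass is still not shown to be absent. Positions and exon lengths come from GENCODE M21, which held 55141 of the identifiers (99.4%). The ligand genes and the lists were chosen with earlier results of these data known. Every ligand is named. From a list at most 5 genes with the largest differences among those called are named per comparison, besides Adam17, Cd40lg, Cd70, Tnfrsf14, Gm11110, the miRNA genes within Lta and Ltb, and cell type markers, which were picked for their role, position or level. The 5 genes most alike to Tnf, Lta and Ltb have a mean log2 CPM of at least 2. Alternatives were the replicate block, other filters, scalings, pseudocount, weights and each label left out.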

Additional observations from a re-analysis of the deposited data

Results flagged for a closer look

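In the YFP+ group Tnfsf14 had 1 sample apart from the others. Sample m3 had a log2 CPM of 3.92, against 4.52, 4.62 and 4.63 in the other 3, and the gap took up 0.843 of the range of the group, above Dixon's 95% limit for 4 samples. Of 36 sets of 4 samples examined this was the 1 that passed, and chance gives about 1 in 20, or 1.8. Without that library Tnfsf14 was -0.43 in YFP+ over YFP- (limma adjusted p = 0.18).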

How the results depend on the processing

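Of 540 values of the 10 ligands under 18 settings, 505 kept their direction and their side of the threshold, 18 lost a call, 13 gained one and 4 changed sign. In 21 of 30 pairs of ligand and comparison nothing changed under any setting. The sign changes were those of Tnfsf4 in YFP+ over YFP-, at -0.13 without the label f2 and -0.04 without m2 (-0.13 to 0.37 over the samples left out), and of Fasl in YFP+ over unstimulated, at 0.097 without the label m3 and 0.099 without the YFP+ library m3 alone, chosen after seeing the data (-0.32 to 0.10). None of these was past the threshold. In YFP+ over YFP- the number of ligands called fell from 5 to 3 with no filter and at an adjusted p under 0.01, and was 3 to 5 with 1 label left out. The number of features called fell from 2691 to 1583 with no filter and to 1466 at the stricter threshold, and was 1571 without m2, 1643 without m4 and 1571 to 2397 over all samples left out. The Lta to Ltb ratio in unstimulated samples was -5.10 with a pseudocount of 1 CPM. In YFP- over unstimulated, leaving out ribosomal RNA-like features gave 3072 higher and 3444 lower, against 3735 and 2586. That setting moved the differences by a median of -0.18 in log2. Why the share of these features differed between samples was not tested.

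Samples with the same label did not deviate together in every pair, and each sample was most alike to its own label in 3, 1 and 2 of 4 cases, for YFP+ with YFP-, YFP- with unstimulated and YFP+ with unstimulated. With the replicate block 3098, 6682 and 7774 features were called in these comparisons. Tnf in YFP+ over YFP- then had a limma adjusted p of 0.054, Fasl -0.56 (limma adjusted p = 0.041) and Tnfsf14 -0.60 (limma adjusted p = 0.044). Depth limited Tnfsf4, which had 0 to 9 reads in unstimulated samples.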
